A study of Mus musculus with 12 samples.

Results

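Transcript levels of *Ch25h*, of enzymes that make or clear oxysterols, and of the liver X receptors (LXRs) and their targets were examined in mouse embryonic palatal mesenchyme cells with and without knockdown of the splicing factor Srsf3. The set held 9 of the 51490 genes in the count table and was taken by gene symbol: *Ch25h*, *Cyp7b1*, *Cyp27a1*, *Nr1h2*, *Nr1h3*, *Abca1*, *Abcg1*, *Mylip*, and *Osbp*. It was assembled around *Ch25h* because the response of that gene to PDGF-AA differed between scramble and shSrsf3 cells. The levels of *Ch25h* are therefore given as a description without a test, and *Ch25h* is left out of every count of genes that passed a test. All 9 genes had a row in the table, and 8 passed the filter on low counts, the exception being *Abcg1*.

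Polyadenylated RNA was sequenced from 12 samples of immortalized mouse embryonic palatal mesenchyme (iMEPM) cells, a line that the study derived from a male *Cdkn2a*-/- embryo, so that all samples lack *Cdkn2a*. Cells had been transduced with lentivirus carrying either a scramble shRNA (scramble) or an shRNA against *Srsf3* (shSrsf3), selected in puromycin, sorted for GFP, and expanded. After serum starvation they were left without ligand (-PDGF-AA) or given 10 ng/mL PDGF-AA, a ligand of the receptor PDGFRα, for 1 hr (+PDGF-AA). Each of the 4 groups held 3 samples. Only 1 shRNA against *Srsf3* and 1 transduced line per shRNA were sequenced here, so that an effect of lower *Srsf3* and any other difference between both lines cannot be told apart. Library totals ranged from 30958966 to 76123359 counts, with group medians of 43948873 for scramble -PDGF-AA, 60726709 for scramble +PDGF-AA, 64688654 for shSrsf3 -PDGF-AA, and 32209826 for shSrsf3 +PDGF-AA. Levels are given as CPM, the count of a gene scaled to library size, and p-values are from the quasi-likelihood test of edgeR, adjusted over all tested genes.

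The targeted gene was lower in shSrsf3 cells. *Srsf3* had 205.8 ± 6.59 CPM in scramble cells and 162.5 ± 1.46 CPM in shSrsf3 cells when ligand was absent (SD, n = 3; log2 fold change -0.34, edgeR adjusted p = 7.95e-06), and 222.2 ± 8.07 and 164.9 ± 4.33 CPM upon ligand stimulation (-0.43, edgeR adjusted p = 9.54e-07). All 8 palatal mesenchyme markers examined were above 1 CPM in scramble cells. In shSrsf3 samples *Msx1* had means of 0.8973 ± 0.113 CPM without and 0.7194 ± 0.152 CPM with ligand (SD, n = 3). The 8 summed to 34900 to 36700 CPM in scramble cells against 31200 to 33400 CPM in shSrsf3 samples. Between lines without ligand, 6 of the 8 passed (1 higher, 5 lower), beside 45.9% of all tested genes (22.2% higher and 23.7% lower). *Pdgfra*, which encodes the receptor of the ligand, had 73.91 ± 6.24 CPM in scramble cells against 51.35 ± 2.04 CPM in shSrsf3 cells without ligand (SD, n = 3; log2 fold change -0.53, edgeR adjusted p = 5.33e-06). The 8 macrophage markers summed to 4.67 to 6.16 CPM in scramble cells against 6.47 to 7.03 CPM in shSrsf3 samples, with *Adgre1* and *Tyrobp* at 0 in all 12 samples. The 8 epithelial markers summed to 4.78 to 6.21 CPM in scramble cells against 2.91 to 4.28 CPM in shSrsf3 samples. The 8 endothelial markers summed to 33.5 to 37.6 CPM in scramble cells against 19.5 to 23.5 CPM in shSrsf3 samples, with *Tie1* and *Cldn5* at 0 throughout. *Tek* alone accounted for most of that sum, with 30.61 ± 1.46 CPM in scramble cells against 20.02 ± 0.421 CPM in shSrsf3 cells without ligand (SD, n = 3). Of the 5 endothelial markers tested, 2 passed as higher and 2 as lower in shSrsf3 cells without ligand, beside 22.2% and 23.7% of all tested genes. The higher ones were *Cdh5*, with 0.2744 ± 0.0541 against 1.37 ± 0.0704 CPM, and *Kdr*, with 0.2511 ± 0.0991 against 0.623 ± 0.134 CPM without ligand. None of the 4 marker sums overlapped between lines, and their part in the results below was not tested. In bulk RNA, fewer cells of a type and less RNA per cell cannot be told apart.

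Oxysterols are oxidized forms of cholesterol. Cholesterol 25-hydroxylase, encoded by *Ch25h*, makes 25-hydroxycholesterol and is known as an interferon-induced enzyme of macrophages, while *Cyp27a1* encodes the mitochondrial enzyme that makes 27-hydroxycholesterol and *Cyp7b1* encodes the enzyme that hydroxylates both products further on the way to bile acids and other sterols. Oxysterols bind the nuclear receptors LXRα (*Nr1h3*) and LXRβ (*Nr1h2*), which pair with retinoid X receptors and induce the cholesterol exporters *Abca1* and *Abcg1* and the ubiquitin ligase *Mylip* (also called IDOL), which marks lipoprotein receptors for degradation. 25-Hydroxycholesterol also holds back the processing of SREBP proteins, and it binds the product of *Osbp*, which exchanges sterol for a phosphoinositide between membranes.

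The genes lie apart in the genome. On GRCm39, in the GENCODE annotation, *Ch25h* is a gene of 1 exon at chr19:34451178-34452564 on the minus strand, with a transcript of 1387 bases. *Osbp* lies on the same chromosome at chr19:11943057-11971478. The others were at chr3:18117411-18297740 for *Cyp7b1*, chr1:74752314-74777056 for *Cyp27a1*, chr7:44199036-44203406 for *Nr1h2*, chr2:91014394-91033417 for *Nr1h3*, chr4:53030787-53159900 for *Abca1*, chr17:31276649-31336969 for *Abcg1*, and chr13:45543215-45565501 for *Mylip*.

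Promoter sequences, each covering 250 bases before to 50 bases after the start of a gene, were taken from RefSeq on GRCm38.p6 for 7 of the 9 genes, all but *Cyp7b1* and *Abcg1*. They were searched on both strands for 8 motifs: the cyclic AMP response element (CRE, TGACGTCA), the AP-1 site (TGANTCA), the E-box (CACGTG), the EGR site (GCGNGGGCG), an interferon element, a sterol element (TCACNCCAC), the CArG box, and the DR4 LXR element. The CRE and the AP-1 site do not match the same letters. Of the 8, 3 had a match in these promoters and 5 had none. The 3 matches are printed below on the strand of the gene, within 30 bases each, because they lie before the start of the gene at the center of the set and before that of a classical LXR target; capitals mark the motif.
*Ch25h*, CRE, chr19:34475191-34475220, minus strand: agacggaagggTGACGTCActggggggagt
*Abca1*, E-box, chr4:53160025-53160054, minus strand: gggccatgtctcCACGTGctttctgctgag
*Abca1*, DR4 LXR element, chr4:53159940-53159969, minus strand: cagcgttTGACCGGTAGTAACCCcggcgct
The CRE began 61 bases before the start of *Ch25h*, and 2.03% of the 27025 genes with a promoter in the table held one. The E-box began 147 bases and the DR4 element 67 bases before the start of *Abca1*. The E-box was held by 8.09% of genes and the DR4 element by 0.133%. The DR4 element matches on the strand opposite to the gene. Of the motifs without a match in the set, the AP-1 site was held by 8.97% of genes, the EGR site by 6.27%, the interferon element by 3.99%, the CArG box by 1.81%, and the sterol element by 1.44%. These matches describe the letters of the sequence, and binding at them was not measured here.

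*Ch25h* was higher upon ligand stimulation in scramble cells and not in shSrsf3 cells, which already stood higher without ligand. In the absence of ligand, the scramble samples had 16.86, 17.7, and 16.54 CPM (17.03 ± 0.599, SD, n = 3). Upon ligand stimulation, the scramble samples had 28.65, 28.71, and 29.55 CPM (28.97 ± 0.506). No scramble sample with ligand came near any scramble sample without it. In shSrsf3 cells, the samples without ligand had 21.95, 23.05, and 24.56 CPM (23.19 ± 1.31), and those with ligand had 22.12, 22.52, and 20.12 CPM (21.59 ± 1.29). Both shSrsf3 groups overlapped each other and fell between the scramble groups, which neither of them reached. These levels rest on 625 to 1912 counts per library.

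**Figure D1:**
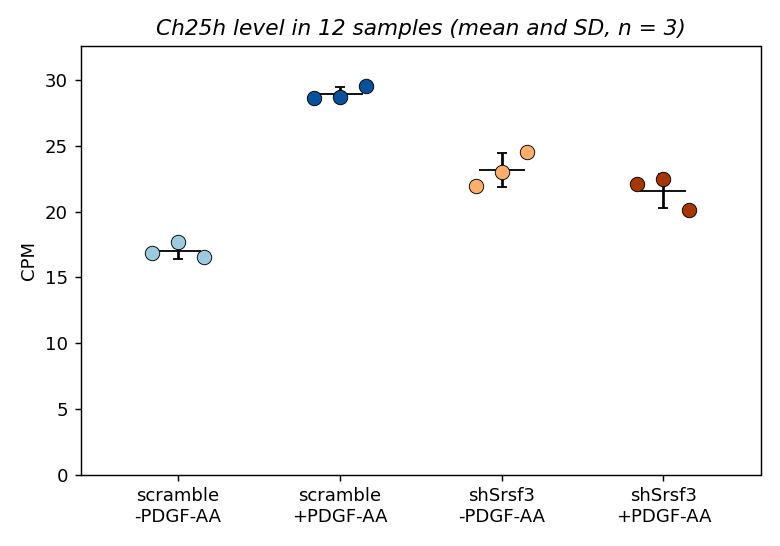
Level of *Ch25h* in CPM (vertical axis) in the 4 groups (horizontal axis). Points are samples, and bars give the mean and SD of 3 samples. Scramble samples move from a mean of 17.03 CPM without to 28.97 CPM with ligand, whereas both shSrsf3 groups lie between these values and overlap.

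The ordering of the groups can be put as 4 fold changes and 1 difference between fold changes. In scramble cells *Ch25h* was 1.70-fold higher with ligand (log2 fold change 0.77, SE 0.052, 95% interval 0.66 to 0.88). In shSrsf3 cells the log2 fold change with ligand was -0.10 (SE 0.053, 95% interval -0.21 to 0.02). The difference between these responses, shSrsf3 less scramble, was -0.87 (SE 0.0742, 95% interval -1.03 to -0.71), and it is the value for which the gene was chosen. Between the lines the sign depended on the ligand: *Ch25h* was 1.36-fold higher in shSrsf3 than in scramble cells without ligand (log2 fold change 0.44, SE 0.0526) and lower with ligand (-0.42, SE 0.0523, a ratio of 0.746). Over all genes, an interaction passed at an adjusted p of 0.05 for 2 of 15037 tested genes (0.0133%) in edgeR's test. By DESeq2 it passed for 26 genes, by limma-voom for 3, and over 20 alternatives for 1 to 218. Nothing is read from these counts for *Ch25h*, since that gene was chosen on this contrast.

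A long noncoding RNA gene, *Gm26902*, overlaps *Ch25h* on the other strand (chr19:34451685-34458954), and 49.2% of all 31-base sequences of the *Ch25h* transcript occur in transcripts of that gene in reverse complement. The libraries were stranded, but whether the counting of reads took account of strand is not given in the sources used here, and if it did not, reads from both genes could not be told apart over these bases. No 31-base sequence of *Ch25h* was shared with another gene on the same strand. *Gm26902* had mean levels of 3.408, 3.659, 3.202, and 3.116 CPM in scramble -PDGF-AA, scramble +PDGF-AA, shSrsf3 -PDGF-AA, and shSrsf3 +PDGF-AA samples, and did not pass in any of the 5 contrasts (adjusted p of 0.531 and 0.127 between lines without and with ligand, 0.682 and 0.965 for ligand in scramble and shSrsf3 cells, and 0.908 for the interaction, all from edgeR's test).

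The genes whose pattern was most like that of *Ch25h* were sought among 12257 genes with a mean count of at least 50, by Pearson correlation of log2 CPM over the 12 samples, which share 4 groups. They were *Egr4*, an immediate early transcription factor (r = 0.90), *Sh3bp4*, an endocytic adaptor (r = 0.862), *Itprip*, an inositol trisphosphate receptor interacting protein (r = 0.858), *Vcl*, which encodes vinculin of focal adhesions (r = 0.85), and *Errfi1*, an inhibitor of EGF receptor signaling (r = 0.827). *Egr4* had 0.73 ± 0.087, 2.80 ± 0.152, 1.35 ± 0.230, and 1.97 ± 0.347 CPM in scramble -PDGF-AA, scramble +PDGF-AA, shSrsf3 -PDGF-AA, and shSrsf3 +PDGF-AA samples (SD, n = 3). *Errfi1* had 46.7 ± 8.16, 80.9 ± 3.10, 67.4 ± 8.87, and 76.7 ± 2.50 CPM in the same order. All 5 share with *Ch25h* the lowest mean in scramble -PDGF-AA and the highest in scramble +PDGF-AA samples, which follows from how they were picked. In shSrsf3 cells none of the 5 passed for ligand in edgeR's test. The adjusted p was 0.256 for *Egr4*, 0.646 for *Errfi1*, 0.864 for *Itprip*, 0.754 for *Sh3bp4*, and 0.886 for *Vcl*. The mean with ligand was above the mean without for *Egr4*, *Errfi1*, *Itprip*, and *Sh3bp4*, and below it for *Vcl*, as for *Ch25h*. Samples with and without ligand overlapped for all of them but *Egr4*, so that these directions do not show that the genes differ. *Itprip* had 50.6 ± 3.36 and 52.1 ± 0.826 CPM, *Sh3bp4* 92.7 ± 1.57 and 96.1 ± 4.86 CPM, and *Vcl* 1880 ± 43.0 and 1840 ± 23.5 CPM in shSrsf3 samples without and with ligand. The antisense gene *Gm26902* had r = 0.273 with *Ch25h*.

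**Figure D2:**
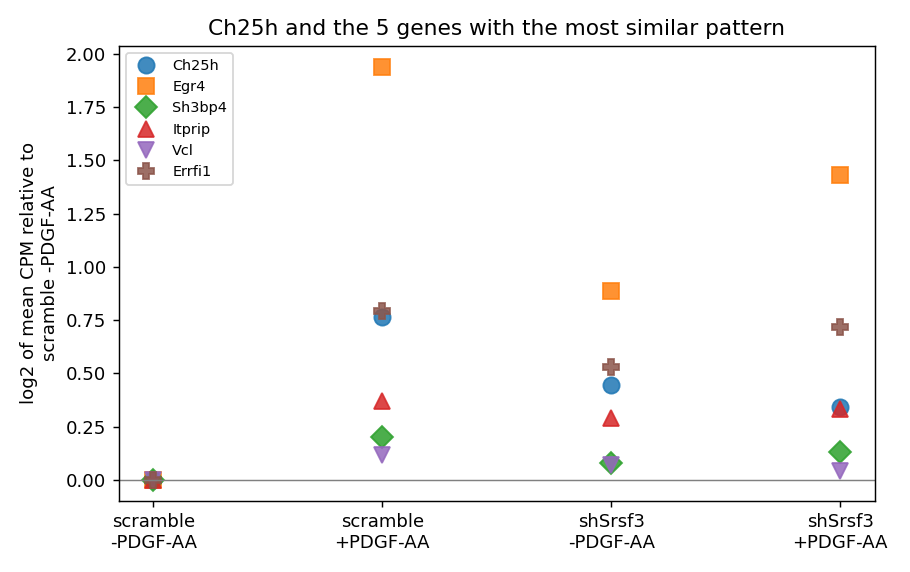
Mean CPM of *Ch25h* and the 5 genes most like it in each group, as log2 relative to the scramble -PDGF-AA mean (vertical axis), against the 4 groups (horizontal axis). All 6 genes are highest in scramble +PDGF-AA, and *Egr4* moves the most, from 0.73 to 2.80 CPM.

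None of the other genes of the set followed this pattern closely. The Pearson correlation of their log2 CPM with that of *Ch25h* over the 12 samples was 0.123 for *Cyp27a1*, 0.114 for *Cyp7b1*, 0.089 for *Abca1*, 0.0643 for *Osbp*, -0.0832 for *Nr1h3*, -0.141 for *Nr1h2*, and -0.582 for *Mylip*.

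Levels were then compared between genes as CPM per kilobase of the canonical transcript. In scramble -PDGF-AA samples *Nr1h2* had 26 ± 0.797 and *Osbp* 21.2 ± 1.38 CPM per kilobase (SD, n = 3). *Ch25h* followed with 12.3 ± 0.432, ahead of *Mylip* with 3.69 ± 0.0401 and *Abca1* with 2.37 ± 0.303. The remaining genes were scarce: *Nr1h3* had 0.268 ± 0.00687, *Cyp27a1* 0.160 ± 0.0398, *Cyp7b1* 0.0495 ± 0.00592, and *Abcg1* 0.00297 ± 0.00514 CPM per kilobase. *Nr1h2* thus stood well above *Nr1h3*, and *Ch25h* well above both *Cyp27a1* and *Cyp7b1*, in every group. In scramble +PDGF-AA samples *Ch25h* reached 20.9 ± 0.363 CPM per kilobase, within the spread of *Osbp* in the same samples (21.5 ± 1.14).

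**Figure D3:**
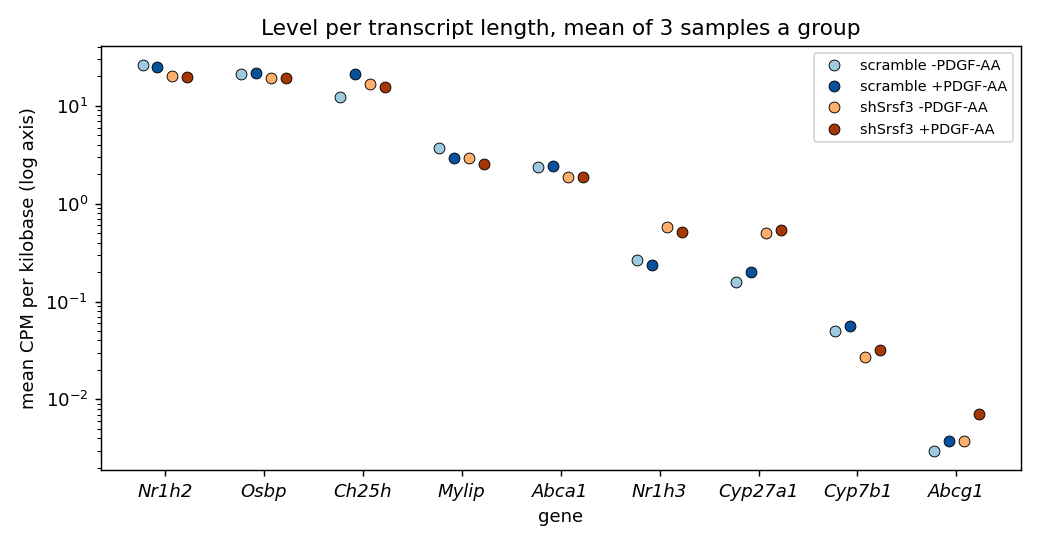
Mean CPM per kilobase of canonical transcript (vertical log axis) for the 9 genes (horizontal axis, in order of level), 1 point per group of 3 samples. *Nr1h2*, *Osbp*, and *Ch25h* lie between 12.3 and 26, and *Abcg1* lies below 0.01.

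Between scramble and shSrsf3 cells, both scarce genes *Cyp27a1* and *Nr1h3* were more than 2-fold higher in shSrsf3 cells, and *Cyp7b1*, *Nr1h2*, and *Abca1* were lower, together with *Mylip* in the absence of ligand and *Osbp* in its presence. Without ligand, 6 of the 7 tested genes other than *Ch25h* passed at an adjusted p of 0.05 (2 higher, 4 lower), where 45.9% of all tested genes passed (22.2% higher and 23.7% lower). With ligand, again 6 of 7 passed (2 higher, 4 lower), beside 41.0% of all genes (20.3% higher and 20.7% lower). In each condition 2 of the 7 passed with at least a 2-fold change, beside 5.75% and 5.42% of all genes, and the samples of both lines did not overlap for 6 of the 7, beside 53.3% and 52.6% of all genes. The median log2 fold change of the 7 genes was -0.33 without and -0.19 with ligand, beside -0.02 and -0.01 over all tested genes.

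Among the oxysterol enzymes, *Cyp27a1* rose and *Cyp7b1* fell in shSrsf3 cells. *Cyp27a1* had 0.2858, 0.3448, and 0.4641 CPM in scramble cells against 1.075, 1.245, and 1.074 CPM in shSrsf3 cells without ligand. With ligand it had 0.4152, 0.5494, and 0.4019 CPM in scramble cells against 1.256, 1.115, and 1.32 CPM in shSrsf3 samples. Every shSrsf3 sample was above every scramble sample. The log2 fold change was 1.60 without ligand (SE 0.228, 3.03-fold, edgeR adjusted p = 7.43e-05) and 1.43 with ligand (SE 0.223, 2.70-fold, edgeR adjusted p = 0.000166). The gene rests on only 11 to 83 counts per library. Of its 31-base sequences, 28.6% occur in reverse complement in *Prkag3*, a muscle AMP-activated kinase subunit gene with a similar level of 0.319 to 0.993 CPM. *Prkag3* did not pass between lines (log2 fold change 0.57, SE 0.350, adjusted p = 0.202 without ligand, and 0.38, SE 0.363, adjusted p = 0.444 with ligand, from edgeR's test). Without ligand, however, every shSrsf3 sample was above every scramble sample for *Prkag3*, and with ligand the lines overlapped. *Prkag3* rests on 10 to 51 counts per library.

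*Cyp7b1* had 0.6235, 0.5287, and 0.4973 CPM in scramble cells against 0.2978, 0.3037, and 0.2953 CPM in shSrsf3 cells in the absence of ligand. Upon ligand stimulation it had 0.7308, 0.6025, and 0.541 CPM in scramble cells against 0.3206, 0.4336, and 0.3218 CPM in shSrsf3 samples. The lines did not overlap in either condition. The log2 fold change was -0.86 without ligand (SE 0.243, edgeR adjusted p = 0.0104) and -0.80 with ligand (SE 0.248, edgeR adjusted p = 0.0195). Of the 31-base sequences of *Cyp7b1*, 7.26% occur in other genes on the same strand (2.58% in *Agt*). In reverse complement, 7.55% occur in other genes (2.5% in *Cog2*). The gene rests on 10 to 44 counts per library, and its calls moved with the setting. Without the filter on low counts the adjusted p was 0.0577 and 0.0986 in both conditions, and with DESeq2 it was 0.075 for the cells with ligand. With only the 9 libraries above a mapping rate of 90% the adjusted p was 0.16 and 0.052 from edgeR's test, but that subset holds 1 scramble -PDGF-AA and 2 scramble +PDGF-AA libraries, so that the spread comes from the remaining groups. Without scramble +PDGF-AA replicate 1, shSrsf3 +PDGF-AA replicate 1, or shSrsf3 +PDGF-AA replicate 3, the adjusted p with ligand was 0.0767, 0.0812, and 0.0681 from edgeR's test.

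The receptors moved in opposite directions. *Nr1h3* (LXRα) had 0.5715, 0.5517, and 0.5801 CPM in scramble cells against 1.334, 1.002, and 1.342 CPM in shSrsf3 cells without ligand. With ligand, it had 0.5813, 0.4076, and 0.5255 CPM in scramble cells against 1.042, 1.053, and 1.191 CPM in shSrsf3 samples. The lowest shSrsf3 sample was well above the highest scramble sample. The log2 fold change was 1.10 without ligand (SE 0.205, 2.14-fold, edgeR adjusted p = 0.000676) and 1.11 with ligand (SE 0.212, 2.16-fold, edgeR adjusted p = 0.000868), on 22 to 103 counts per library. Of its 31-base sequences, 3.74% occur in reverse complement in the neighboring *Acp2*, which at 42.0 to 48.6 CPM was far more abundant.

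*Nr1h2* (LXRβ), the more abundant receptor by far, had 52.97, 56.32, and 54.63 CPM in scramble cells against 41.72, 43.99, and 42.01 CPM in shSrsf3 cells without ligand. With ligand it had 52.02, 51.78, and 51.73 CPM in scramble cells against 42.14, 42.77, and 40.59 CPM in shSrsf3 samples. No shSrsf3 sample reached the scramble range. The log2 fold change was -0.36 (SE 0.0382, edgeR adjusted p = 5.15e-06) and -0.31 (SE 0.0387, edgeR adjusted p = 2.48e-05).

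**Figure D4:**
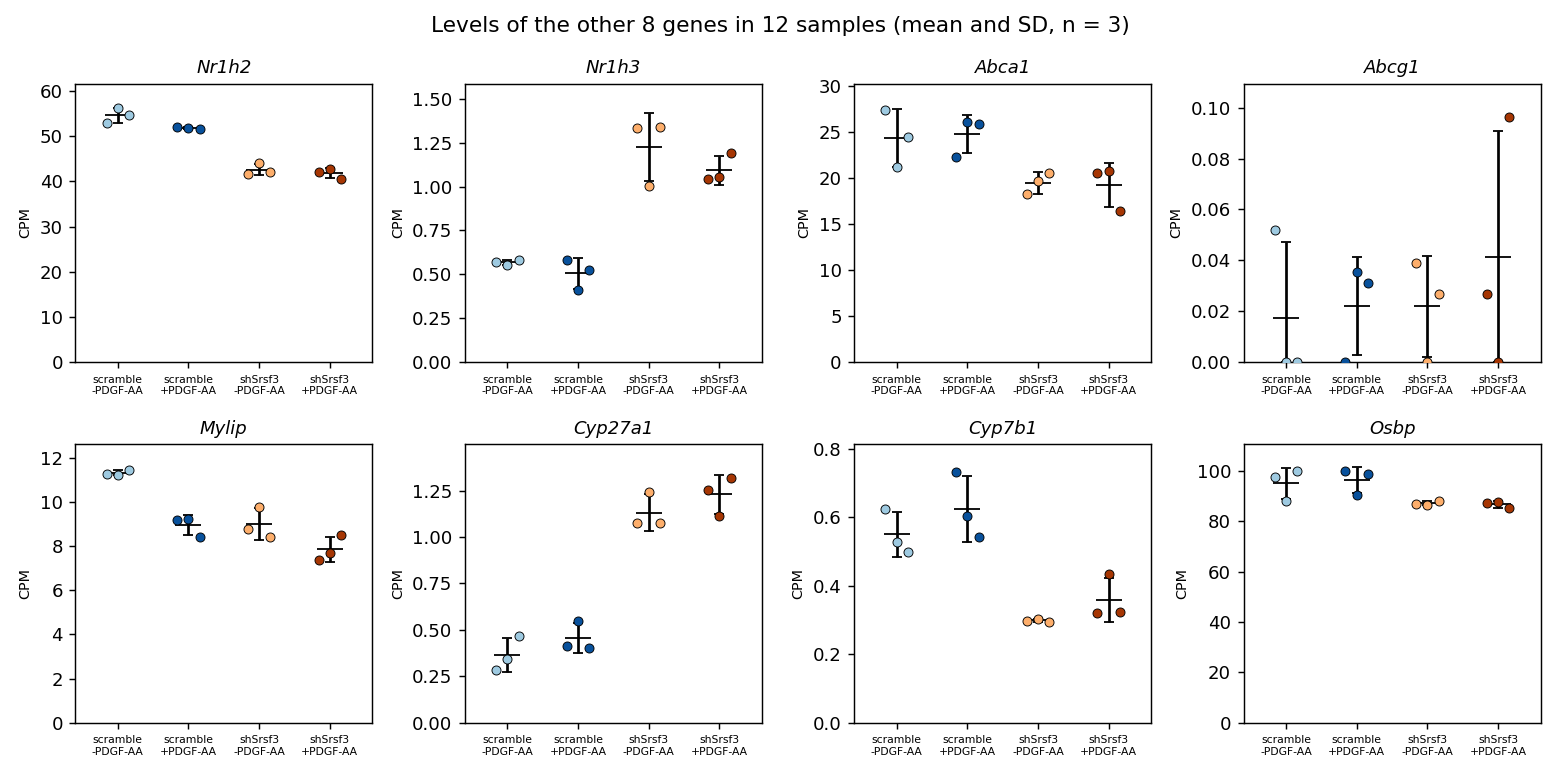
Levels in CPM (vertical axes, from 0) of the other 8 genes in the 4 groups (horizontal axes). Points are samples, and bars give the mean and SD of 3 samples, cut at 0. *Nr1h3* and *Cyp27a1* are higher in all shSrsf3 samples, *Nr1h2* and *Cyp7b1* are lower in all of them, and *Abcg1* stays below 0.1 CPM.

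Of the LXR targets, *Abca1* was lower in shSrsf3 cells, *Mylip* was lower without ligand, and *Abcg1* could not be compared. *Abca1*, the exporter of cholesterol to lipid-poor apolipoproteins, whose promoter held the DR4 element above, had 27.38, 21.17, and 24.47 CPM in scramble cells against 18.21, 19.63, and 20.48 CPM in shSrsf3 cells without ligand. With ligand it had 22.32, 26.09, and 25.86 CPM in scramble cells against 20.49, 20.78, and 16.45 CPM in shSrsf3 samples. The groups did not overlap, although the gap without ligand was narrow. The log2 fold change was -0.33 (SE 0.0987, edgeR adjusted p = 0.0152) and -0.36 (SE 0.101, edgeR adjusted p = 0.011). Single libraries decided these calls: the adjusted p without ligand was 0.0818 on leaving out scramble -PDGF-AA replicate 1 and 0.0689 on leaving out shSrsf3 -PDGF-AA replicate 1, and the adjusted p with ligand was 0.0594 without shSrsf3 +PDGF-AA replicate 3 (edgeR's test).

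*Mylip* had 11.28, 11.24, and 11.47 CPM in scramble cells against 8.766, 9.794, and 8.43 CPM in shSrsf3 cells without ligand, with no overlap (log2 fold change -0.33, SE 0.0707, edgeR adjusted p = 0.00191). With ligand it had 9.168, 9.251, and 8.424 CPM in scramble cells against 7.375, 7.681, and 8.497 CPM in shSrsf3 samples, and the groups overlapped (-0.19, SE 0.0748, edgeR adjusted p = 0.057). Beside that value, the adjusted p was 0.0437 without shSrsf3 -PDGF-AA replicate 2, 0.0417 without scramble +PDGF-AA replicate 3, and 0.0309 without shSrsf3 +PDGF-AA replicate 3 (edgeR's test). It was 0.049 with upper-quartile factors (edgeR's test). In 17 of 21 alternatives it stayed above 0.05. *Abcg1*, the exporter to high-density lipoprotein, had 0 to 3 counts per library and 14 counts in all, with 5 of the 12 libraries at 0. Its level of at most 0.0966 CPM was too low for a comparison at this depth.

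*Osbp*, the oxysterol-binding exchanger, had 97.4, 88.07, and 99.75 CPM in scramble cells against 86.89, 86.42, and 88.08 CPM in shSrsf3 cells without ligand. The groups overlapped at 1 scramble sample (log2 fold change -0.13, SE 0.0498, edgeR adjusted p = 0.0524). With ligand it had 99.89, 90.52, and 98.69 CPM in scramble cells against 87.38, 87.72, and 85.03 CPM in shSrsf3 samples, without overlap (-0.15, SE 0.05, edgeR adjusted p = 0.0256). The call moved with the libraries and the method used. Without ligand, the adjusted p was 0.0112 and 0.0335 on leaving out replicate 2 of scramble -PDGF-AA and replicate 2 of scramble +PDGF-AA, and 0.042 with the replicate number as a block (edgeR's test). It was 0.0491 with upper-quartile factors and 0.049 without the filter on low counts (edgeR's test), and 0.0468 by limma-voom. In 14 of 21 alternatives without ligand the adjusted p stayed above 0.05. With ligand, it was 0.0995, 0.0892, 0.0662, and 0.0995 without scramble +PDGF-AA replicate 1, scramble +PDGF-AA replicate 3, shSrsf3 +PDGF-AA replicate 1, and shSrsf3 +PDGF-AA replicate 3 (edgeR's test).

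Upon ligand stimulation, few of these genes changed. In scramble cells, 1 of the 7 tested genes other than *Ch25h* passed, beside 4.04% of all tested genes in either direction and 2.04% that were lower. This was *Mylip*, which fell from 11.33 ± 0.123 to 8.948 ± 0.455 CPM (SD, n = 3; log2 fold change -0.34, SE 0.0705, edgeR adjusted p = 0.0146), with no overlap between the samples. Without scramble +PDGF-AA replicate 3 the adjusted p was 0.0882 (log2 fold change -0.30), and with only the 9 libraries above a mapping rate of 90%, which leave 2 scramble samples with ligand against 1 without, it was 0.0661 (-0.39, edgeR's test). The samples also did not overlap for *Nr1h2* (54.64 ± 1.68 and 51.85 ± 0.152 CPM, log2 fold change -0.08, edgeR adjusted p = 0.32), making 2 of 7 genes without overlap, beside 18.8% of all genes. The log2 fold changes of the other 5 genes lay between -0.17 for *Nr1h3* and 0.28 for *Cyp27a1*, with adjusted p of 0.628 or more. The median over the 7 was 0.02, beside -0.01 over all tested genes.

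In shSrsf3 cells, 0 of the 7 genes passed with ligand in edgeR's test, beside 0.565% of all genes. By DESeq2 and by limma-voom the count was also 0. At an unadjusted p under 0.05 the count was 1, beside 9.44% of all genes, again *Mylip*, with 8.997 ± 0.711 and 7.851 ± 0.580 CPM without and with ligand (log2 fold change -0.20, SE 0.0750, 95% interval -0.37 to -0.04, edgeR adjusted p = 0.363). *Abca1* stood at 19.44 ± 1.15 and 19.24 ± 2.42 CPM, *Nr1h2* at 42.58 ± 1.23 and 41.83 ± 1.13 CPM, and *Osbp* at 87.13 ± 0.858 and 86.71 ± 1.46 CPM.

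Whether the ligand response differed between lines was tested as an interaction, which 0 of the 7 genes passed in edgeR's test, beside 0.0133% of all genes. DESeq2 and limma-voom gave 0 of 7 as well, as did an unadjusted p under 0.05, which 5.54% of all genes passed. The difference between the responses of *Mylip* was 0.14 (95% interval -0.08 to 0.36, edgeR adjusted p = 0.882), so that its fall was not shown to differ between scramble and shSrsf3 cells. The interval was -0.07 to 0.17 for *Nr1h2*, -0.18 to 0.13 for *Osbp*, and -0.34 to 0.27 for *Abca1*. For the scarce genes it was wide, at -0.60 to 0.61 for *Nr1h3*, -0.85 to 0.52 for *Cyp27a1*, and -0.68 to 0.81 for *Cyp7b1*.

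**Figure D5:**
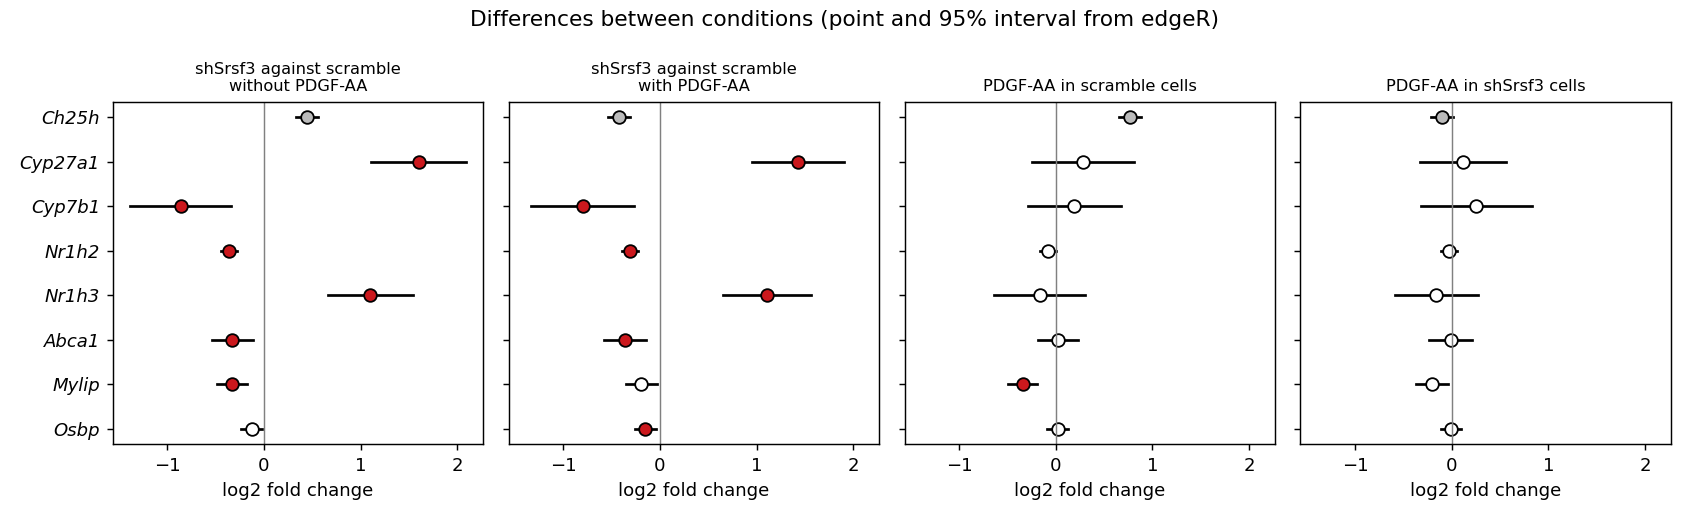
Log2 fold change (horizontal axes) with its 95% interval from edgeR for 8 genes (vertical axis) in the 4 comparisons. Red points passed at an adjusted p of 0.05, white points did not, and the gray points of *Ch25h* carry no test. *Cyp27a1* and *Nr1h3* lie above 1 and *Cyp7b1* below -0.7 in both comparisons of lines, while *Mylip* alone is red for the ligand, in scramble cells.

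Genes of the surrounding pathways were counted in the same fit, and their counts stand beside the 45.9% and 41.0% of all genes that passed between lines without and with ligand. Of 21 further enzymes of oxysterols, sterols, and cholesterol esters, 13 were tested, and 6 passed between lines without ligand (3 higher, 3 lower) and 6 with ligand (3 higher, 3 lower). *Ebp*, a sterol isomerase of cholesterol synthesis, rose from 25.66 ± 0.647 to 37.65 ± 0.595 CPM in shSrsf3 cells when ligand was absent (SD, n = 3; log2 fold change 0.55, edgeR adjusted p = 1.47e-07). *Soat1*, which esterifies cholesterol, rose from 73.25 ± 1.74 to 96.2 ± 2.10 CPM (0.39, edgeR adjusted p = 3.61e-06). *Lipa* and *Nceh1*, which hydrolyze cholesterol esters in lysosomes and in the cytoplasm, fell from 111.8 ± 4.37 to 78.17 ± 1.17 CPM (-0.52, edgeR adjusted p = 2e-07) and from 10.29 ± 0.631 to 7.168 ± 0.464 CPM (-0.52, edgeR adjusted p = 0.000181). With ligand, the 4 genes of this list with the smallest adjusted p were *Lipa* (-0.48), *Ebp* (0.49), *Soat1* (0.28), and *Hsd3b7* (0.50), an enzyme that acts on 7α-hydroxylated sterols. Ligand changed 0 of the 13 in either line in edgeR's test (3 and 0 at an unadjusted p under 0.05, beside 17.6% and 9.44% of all genes, 1 and 0 by DESeq2, and 0 and 0 by limma-voom), and 1 passed in scramble cells without scramble +PDGF-AA replicate 2. The median log2 fold change of the list was -0.04 and -0.03 between lines without and with ligand.

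Of 25 other LXR targets, 18 were tested. Between lines, 8 passed without ligand (5 higher, 3 lower) and 7 with ligand (2 higher, 5 lower), with medians of -0.01 and -0.04. *Pltp*, a phospholipid transfer protein of lipoproteins, rose from 81.49 ± 3.57 to 122.1 ± 4.10 CPM without ligand (SD, n = 3; log2 fold change 0.58, edgeR adjusted p = 9.57e-07), and *Arl4c*, a small GTPase, fell from 23.11 ± 0.942 to 13.48 ± 0.934 CPM (-0.77, edgeR adjusted p = 6.42e-07). *Scd2*, a fatty acid desaturase gene, had a log2 fold change of -0.27 (adjusted p = 0.00112) and *Acaca*, which encodes the enzyme that makes malonyl-CoA, of 0.27 (adjusted p = 0.00158) without ligand, both from edgeR's test. *Apoe*, the apolipoprotein gene, rose from 1.835 ± 0.252 to 2.876 ± 0.131 CPM with ligand (0.65, edgeR adjusted p = 0.00949). The count with ligand was 4 without shSrsf3 +PDGF-AA replicate 3.

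In scramble cells 4 of these 18 LXR targets passed with ligand, all higher, beside 2.00% of all tested genes in that direction. They were *Fasn*, fatty acid synthase (496.7 ± 37.5 to 622.8 ± 36.0 CPM, log2 fold change 0.33, adjusted p = 0.00558), *Acaca* (0.23, adjusted p = 0.0363), *Mid1ip1*, an activator of acetyl-CoA carboxylase (0.17, adjusted p = 0.0434), and *Ttc39b* (0.23, adjusted p = 0.00279), all from edgeR's test. *Fasn*, *Acaca*, and *Mid1ip1* act in fatty acid synthesis, which SREBP factors drive as well. The list's median log2 fold change with ligand was 0.12 in scramble and 0.10 in shSrsf3 cells. The count was 2 on leaving out scramble -PDGF-AA replicate 2, scramble +PDGF-AA replicate 1, scramble +PDGF-AA replicate 3, shSrsf3 -PDGF-AA replicate 1, shSrsf3 -PDGF-AA replicate 2, or shSrsf3 +PDGF-AA replicate 2. The count in shSrsf3 cells was 0 in edgeR's test, by DESeq2, and by limma-voom (6 at an unadjusted p under 0.05, beside 9.44% of all genes). At that unadjusted threshold, 7 of the 18 passed in scramble cells, beside 17.6% of all genes.

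The SREBP pathway and lipoprotein receptors, which include the substrates of *Mylip*, had 16 of 16 genes tested. Between lines, 7 passed without ligand (6 higher, 1 lower) and 5 with ligand (4 higher, 1 lower), with medians of 0.05 and -0.01. *Scarb1*, the receptor for high-density lipoprotein, rose from 38.87 ± 0.999 to 86.3 ± 3.74 CPM without ligand (SD, n = 3; log2 fold change 1.15, edgeR adjusted p = 6.89e-10). *Lrp8*, a receptor for apolipoprotein E, rose as well (0.48, edgeR adjusted p = 0.000166). *Vldlr*, a substrate of the *Mylip* ligase, fell from 83.28 ± 2.36 to 61.85 ± 2.19 CPM (-0.43, edgeR adjusted p = 3.66e-06). With ligand the log2 fold change was 1.09 for *Scarb1*, 0.55 for *Lrp8*, and -0.29 for *Vldlr*.

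In scramble cells, 3 of the 16 passed with ligand, all higher, beside 2.00% of all tested genes in that direction. Among them was *Insig1*, which retains SREBP in the endoplasmic reticulum and rose from 196.3 ± 15.7 to 231.1 ± 11 CPM (SD, n = 3; log2 fold change 0.24, edgeR adjusted p = 0.0414). Without scramble +PDGF-AA replicate 2 the count was 7, and DESeq2 gave 6. Over all tested genes, 608 passed in edgeR's test, 877 by DESeq2, and 243 to 1472 on leaving out single samples. At an unadjusted p under 0.05, 8 of the 16 passed in scramble cells, beside 17.6% of all genes. The list's median log2 fold change with ligand was 0.13 in scramble and 0.09 in shSrsf3 cells. In shSrsf3 cells 0 passed in edgeR's test, beside 0.565% of all genes (5 at an unadjusted p under 0.05, beside 9.44%, 3 by DESeq2, and 0 by limma-voom), and 1 passed on leaving out replicate 1 or replicate 3 of the scramble -PDGF-AA samples. Over all tested genes, 85 passed there in edgeR's test, 210 by DESeq2, 81 by limma-voom, and 23 to 168 on leaving out single samples.

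All 22 listed oxysterol-binding and sterol transfer proteins were tested, and 9 passed between lines without ligand (7 higher, 2 lower) and 11 with ligand (8 higher, 3 lower), with medians of 0.02 and 0.00056. The relatives of *Osbp* with the smallest adjusted p were higher without ligand: *Osbpl1a* rose from 25.57 ± 1.29 to 38.11 ± 1.62 CPM (SD, n = 3; log2 fold change 0.58, edgeR adjusted p = 3.77e-07), *Osbpl6* from 8.81 ± 0.122 to 12.98 ± 0.237 CPM (0.56, adjusted p = 1.88e-06), and *Osbpl10* from 3.488 ± 0.432 to 5.907 ± 0.246 CPM (0.75, adjusted p = 0.000317). *Gramd1b*, a carrier of cholesterol from the plasma membrane to the endoplasmic reticulum, rose by 0.48 without and 0.51 with ligand (edgeR adjusted p of 0.00038 and 0.000209), whereas *Osbpl9* was lower with ligand (-0.18, edgeR adjusted p = 0.00163). The count with ligand was 7 without shSrsf3 +PDGF-AA replicate 1 and 7 without shSrsf3 +PDGF-AA replicate 3. Ligand changed 0 of the 22 in scramble and 0 in shSrsf3 cells in edgeR's test (4 and 3 at an unadjusted p under 0.05, beside 17.6% and 9.44% of all genes, 1 and 0 by DESeq2, and 0 and 0 by limma-voom). Without scramble +PDGF-AA replicate 2, 1 passed in scramble cells, and without scramble -PDGF-AA replicate 1, 1 passed in shSrsf3 cells.

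Partners and coregulators of the LXRs had 13 of 15 genes tested, with 4 passing between lines without ligand (2 higher, 2 lower) and 6 with ligand (3 higher, 3 lower) and medians of 0.01 and 0.02. The coactivator *Ncoa3* was higher (0.16 and 0.20 without and with ligand), and the cofactors *Nrip1* (-0.18 and -0.20) and *Asxl2* (-0.17 and -0.23) were lower. With ligand, 1 of the 13 passed in scramble cells, beside 4.04% of all genes. It was *Rxrb*, a retinoid X receptor, which fell from 34.24 ± 1.05 to 30.77 ± 0.577 CPM (-0.16, edgeR adjusted p = 0.0209). That count was 0 without scramble -PDGF-AA replicate 1, scramble +PDGF-AA replicate 1, scramble +PDGF-AA replicate 3, or shSrsf3 +PDGF-AA replicate 1. It was 2 on leaving out replicate 3 of scramble -PDGF-AA or replicate 2 of scramble +PDGF-AA. The count in shSrsf3 cells was 0 in edgeR's test, by DESeq2, and by limma-voom (1 at an unadjusted p under 0.05, beside 9.44% of all genes).

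Interferon and inflammatory genes, the setting in which *Ch25h* is best known, were mostly lower in shSrsf3 cells. Of 21 listed, 20 were tested, and 16 passed between lines without ligand (4 higher, 12 lower) and 15 with ligand (2 higher, 13 lower), with medians of -0.34 and -0.40. *Irf9*, a transcription factor of the interferon response, fell from 19.31 ± 0.877 to 11.61 ± 0.912 CPM without ligand (SD, n = 3; log2 fold change -0.73, edgeR adjusted p = 5.27e-07), and the interferon-induced antiviral gene *Bst2* fell from 20.03 ± 1.67 to 12.14 ± 0.288 CPM (-0.72, edgeR adjusted p = 3.58e-06). *Tlr4*, the receptor for bacterial lipopolysaccharide, rose from 10.86 ± 0.850 to 16.27 ± 0.873 CPM (0.59, edgeR adjusted p = 6.35e-06). With ligand, *Bst2* (-0.93), *Irf9* (-0.71), and *Stat3* (-0.46) were lower. *Ch25h* itself, which was chosen on its values, was higher in shSrsf3 cells without ligand (log2 fold change 0.44) and lower with ligand (-0.42).

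With ligand, 1 of these 20 genes passed in scramble cells, a share near the 4.04% of all genes. This was *Atf3*, a stress-induced transcription factor and immediate early gene, which rose from 21.63 ± 2.80 to 37.15 ± 2.47 CPM (SD, n = 3; log2 fold change 0.79, edgeR adjusted p = 0.000657). In shSrsf3 cells it had 27.41 ± 3.32 and 36.02 ± 3.62 CPM (0.39, edgeR adjusted p = 0.134), and the difference between the responses was -0.39 (edgeR adjusted p = 0.847). In shSrsf3 cells 0 of the 20 passed in edgeR's test, beside 0.565% of all genes, 0 by limma-voom, and 1 by DESeq2 (2 at an unadjusted p under 0.05, beside 9.44%). The interaction was passed by 0 genes of each of the 6 pathway lists in edgeR's test, by DESeq2, and by limma-voom. At an unadjusted p under 0.05, where 5.54% of all genes passed, it was passed by 3 of the 18 other LXR targets, 3 of the 20 interferon and inflammatory genes, 1 of the 22 oxysterol-binding and sterol transfer proteins, 1 of the 16 SREBP pathway genes and receptors, and 0 of the 13 genes in each of the other two lists.

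Immediate early genes, which growth factors are known to induce, changed with ligand in both lines. Of 12 listed, 9 rose in scramble cells, beside 2.00% of all genes, and 8 changed in shSrsf3 cells, beside 0.565%, of which 7 rose and 1, *Fos*, fell. Without ligand, 9 of the 12 were higher in shSrsf3 than in scramble cells, beside 22.2% of all genes. Their summed levels were 380 to 492 CPM in scramble and 712 to 874 CPM in shSrsf3 samples without ligand, and 792 to 1010 CPM and 1240 to 1300 CPM with it. An interaction was passed by 0 of the 12 in edgeR's test, the only one run on this list (7 at an unadjusted p under 0.05, beside 5.54%).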

How the data were processed

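RNA-seq libraries of 12 iMEPM samples (4 groups of 3, grouped by their labels) were processed by the authors, who used BBDuk for trimming, Salmon 1.4.0 with the GENCODE M26 transcripts of GRCm39 for quantification, and tximport for sums over each gene, and who deposited expected counts. These are estimated numbers of read pairs and carry no correction for library size. The submitters' processing notes also name DESeq2 1.32.0 and STAR 2.7.9a. Libraries were stranded. The tximport settings and the use of strand in counting are not given in the sources used here. Here, the expected counts were rounded (16.3% were not whole), filtered with filterByExpr of edgeR 4.0.16 (minimum count 10), and normalized by TMM. The quasi-likelihood test of edgeR was fitted to 15037 genes and all 12 samples with 1 mean per group. P-values were adjusted by the Benjamini-Hochberg method over all tested genes, and a gene passed at 0.05 or less. Standard errors were derived from the log2 fold change and its F statistic. The study's methods call the 3 samples of each group independent biological replicates, all from 1 transduced line per shRNA. With 3 samples against 3, an exact permutation test cannot go below 0.1 and was not used. No 2 libraries of the same group differed by less than sampling noise, and no 2 of the 12 libraries were identical. Intervals cover the spread between samples only.

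The genes of the set and all lists were chosen with earlier results of these data known. Genes were named by rule: all 9 of the set, *Srsf3*, up to 4 per list and comparison with the smallest adjusted p and at least 1 CPM, the 5 genes most correlated with *Ch25h*, and *Gm26902*. *Prkag3*, *Acp2*, *Tek*, *Cdh5*, *Kdr*, *Pdgfra*, and *Fos* were named after their values were seen. Some genes that this rule names are not reported here. Lengths, positions, and shared 31-base sequences came from GENCODE M39 on GRCm39, a later release than that of the authors, and promoters from RefSeq on GRCm38.p6. The script was tested on simulated data. R 4.3.3, limma 3.58.1, DESeq2 1.42.0, Python 3.11, pandas 2.3.3, and matplotlib 3.10.9 were also used. Other size factors, filters, tests, a replicate block, equal depth, and subsets of samples were tried as alternatives.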

Additional observations from a re-analysis of the deposited data

Results flagged for a closer look

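1 result was picked out for a closer look by a test of the difference between groups: the response of *Ch25h* to PDGF-AA differed between the lines, by -0.87 on the log2 scale (shSrsf3 less scramble, SE 0.0742). The gene was chosen for this difference, so that the value is a description and not independent support. Leaving out any 1 of the 12 samples gave -0.91 to -0.82. Groups of 3 samples are too small for the check on single distant samples, which was not made.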

How the results depend on the processing

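The number of genes of the set other than *Ch25h* that passed was 6 between lines without ligand and 5 to 7 over 21 alternatives, and 6 and 4 to 7 with ligand. For ligand in scramble cells it was 1, *Mylip*, and 0 with only the 9 libraries above a mapping rate of 90%, a subset with 1 scramble -PDGF-AA library, where the spread comes from the remaining groups; on leaving out single samples it was 0 to 1, with 0 without scramble +PDGF-AA replicate 3. For ligand in shSrsf3 cells and for the interaction it was 0 under all alternatives run. The log2 fold changes of *Ch25h* kept their sign throughout, from 0.40 to 0.48 and from -0.46 to -0.37 between lines without and with ligand, from 0.74 to 0.81 for ligand in scramble cells, from -0.14 to -0.05 for ligand in shSrsf3 cells, and from -0.91 to -0.82 for the interaction. Over the genes of the set other than *Ch25h*, and all comparisons and alternatives, 698 results stayed on their side of the threshold. A call was lost by 17 and gained by 11. Of the results with a call in the main fit or in the alternative, 0 turned their direction. Results without a call did change sign, as for *Abca1* with ligand in scramble cells (log2 fold change 0.026, and -0.0612 to 0.116 on leaving out single samples). A fit of only the groups compared could not give the interaction, and *Abcg1* was tested in no fit with the filter on low counts.

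Replicate numbers did not pair the samples: over the 18 pairs of samples that share a number, the correlation of deviations from the group means was -0.38 to 0.471 (median 0.01, over 0.1 in 4 pairs), and 3 of 12 samples correlated best with a sample of their own number. Over the 36 pairs with different numbers it was -0.636 to 0.569 (over 0.1 in 11 pairs). Both extremes paired scramble -PDGF-AA replicate 3 with a scramble +PDGF-AA sample, replicate 2 (-0.636) and replicate 1 (0.569). A replicate block does not model such pairs, and their source was not tested. With the replicate number as a block, the counts were 7, 6, 1, 0, and 0 in the order above, *Osbp* without ligand (adjusted p = 0.042) being the only call of the set that changed. Counts in the pathway lists moved by more than 1.5 times mostly for ligand, where calls were few. Counts over all tested genes moved as well. For ligand in scramble cells 608 passed, with 877 by DESeq2 and 243 to 1472 over all alternatives. For ligand in shSrsf3 cells 85 passed, with 210 by DESeq2 and 23 to 374 over all alternatives. For the interaction 2 passed, with 26 by DESeq2 and 1 to 218 over all alternatives. Without the filter on low counts, the SREBP list had 8 genes in scramble and 3 in shSrsf3 cells, and the interferon list had 2 for the interaction. At equal depth, 2 LXR targets passed for ligand in scramble cells. The causes were not tested. At 10 to 103 counts per library, *Cyp7b1*, *Cyp27a1*, and *Nr1h3* allow only large differences to be seen.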
